A study of Rattus norvegicus with 20 samples.

Results

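The 7 Krüppel-like factor genes Klf2, Klf4, Klf5, Klf6, Klf9, Klf10 and Klf15 were followed across 4 groups of rat kidney. They were chosen by gene symbol, each matched 1 row of the 34681 rows of the table, and all 7 were among the 15954 rows that passed the filter on low values. Trauma-induced acute kidney injury is the subject of the series, and its design text is concerned with the transcriptional programmes of that injury. The labels put 20 libraries of frozen kidney into the groups RM-HS (3 libraries), RM (6), HS (5) and Sham (6). They spell out neither RM nor HS, and give no strain, age, time or agent. The design text counts 5 RM samples, but the labels give 6, which all entered the fit. Nothing in the labels ties libraries to individual animals, so a p-value reflects the spread among libraries, part of which may be technical.

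Krüppel-like factors are transcription factors that bind GC-rich and CACCC sequences through zinc fingers near the end of the protein. KLF6 and KLF10 are switched on early after growth factor or stress signals, KLF4 and KLF5 act in epithelial growth and differentiation, KLF2 is the flow-responsive factor of endothelium, and KLF9 and KLF15 are induced by glucocorticoids. In the mouse kidney KLF15 is known for its role in podocytes and KLF6 for its role in the injured proximal tubule. Levels below are read counts that the authors normalized with DESeq2, and a fold change is a difference of log2(value + 1) with its standard error, from 1 limma fit of all 20 libraries. The threshold was an adjusted p of 0.05 by Benjamini-Hochberg over all 15954 rows.

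The libraries held 45.05 to 109.9 M reads, of which 42.2% to 54.7% lay on 14 mitochondrial rows, and no member had fewer than 51 reads in any library. The Sham libraries stood apart from each other in tubule markers. The summed level of 7 early proximal tubule markers was 143235 to 165175 in Sham 1 and Sham 6, but 41886 to 75277 in Sham 2 to Sham 5, while it was 196307 to 276828 in RM-HS, 159152 to 239563 in RM and 138899.7 to 164369 in HS. None of the 7 markers was at 0 in all libraries. Of 3 late proximal tubule markers 1 rose and 2 fell against Sham in each injured group. Their summed level was 45851 to 55534 in RM-HS, 44250 to 82804 in RM and 41985 to 62719 in HS. It was 62187 to 73157 in Sham 1 and Sham 6 and 73426 to 108087 in Sham 2 to Sham 5. Thick ascending limb markers fell in 5 of 7 in RM-HS, 6 in RM and 7 in HS, and their summed level was 142500.4 to 172153 in RM-HS, 97344 to 210264 in RM, 77555 to 132240.6 in HS and 190640.8 to 309446 in Sham. Collecting duct principal cell markers fell in 8 of 8, 8 and 7 in RM-HS, RM and HS. Their sums were 9269 to 20311 in RM-HS, 12184 to 38967 in RM and 14269 to 22434 in HS. In Sham they were 33924 to 49170 in Sham 1 and Sham 6 and 52894 to 89785 in Sham 2 to Sham 5. The part of these markers in the member values was not tested. The early proximal tubule split of the Sham libraries follows their names. Sham 2 to Sham 5 are named R30, R31, R34 and R35, a range that holds no injured library. Sham 6 is named R40, between RM-HS 1 (R39) and RM-HS 2 (R42), and Sham 1 is named R130. Whether the name numbers mark a batch is not stated. Member changes against Sham and list counts are also given with Sham 1 and Sham 6 as the only controls. In bulk tissue, fewer cells of a type and less RNA per cell cannot be told apart.

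By the fit with all Sham libraries, 7 of 7 genes changed against Sham in RM-HS and in RM, and 5 of 7 in HS. Only 5 of 7 passed in each group with Sham 1 and Sham 6 as the only controls, without Klf2 and Klf9 in RM-HS and RM. With these controls 27.2%, 32.9% and 25.7% of all rows were called in RM-HS, RM and HS. With the name letter (R or S) as a covariate 5 members passed in RM and 3 in HS. Over all rows RM had 4551 calls with the covariate and 8455 without it. All RM-HS and Sham libraries are named R, so the covariate cannot change the RM-HS estimates. The 7 members that passed in RM-HS are therefore no test of the letter. In the main fit 5 rose and 2 fell in RM-HS, while 21.3% of all rows were called higher and 21.0% lower. In RM 5 rose and 2 fell, against 26.2% higher and 26.8% lower, and in HS 5 rose and 0 fell, against 23.3% higher and 23.2% lower. Klf4, Klf5, Klf6, Klf9 and Klf10 were the rises in each of these comparisons, and Klf2 and Klf15 were the falls in RM-HS and RM. The median log2 fold change of the members was 1.62 in RM-HS, 1.12 in RM and 0.68 in HS, while over all rows it was -0.03, -0.04 and -0.03. The 3 comparisons share the same Sham libraries. Groups did not overlap for 6 members in RM-HS, 4 in RM and 2 in HS, against 32.5%, 25.7% and 25.9% of all rows.

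**Figure D1:**
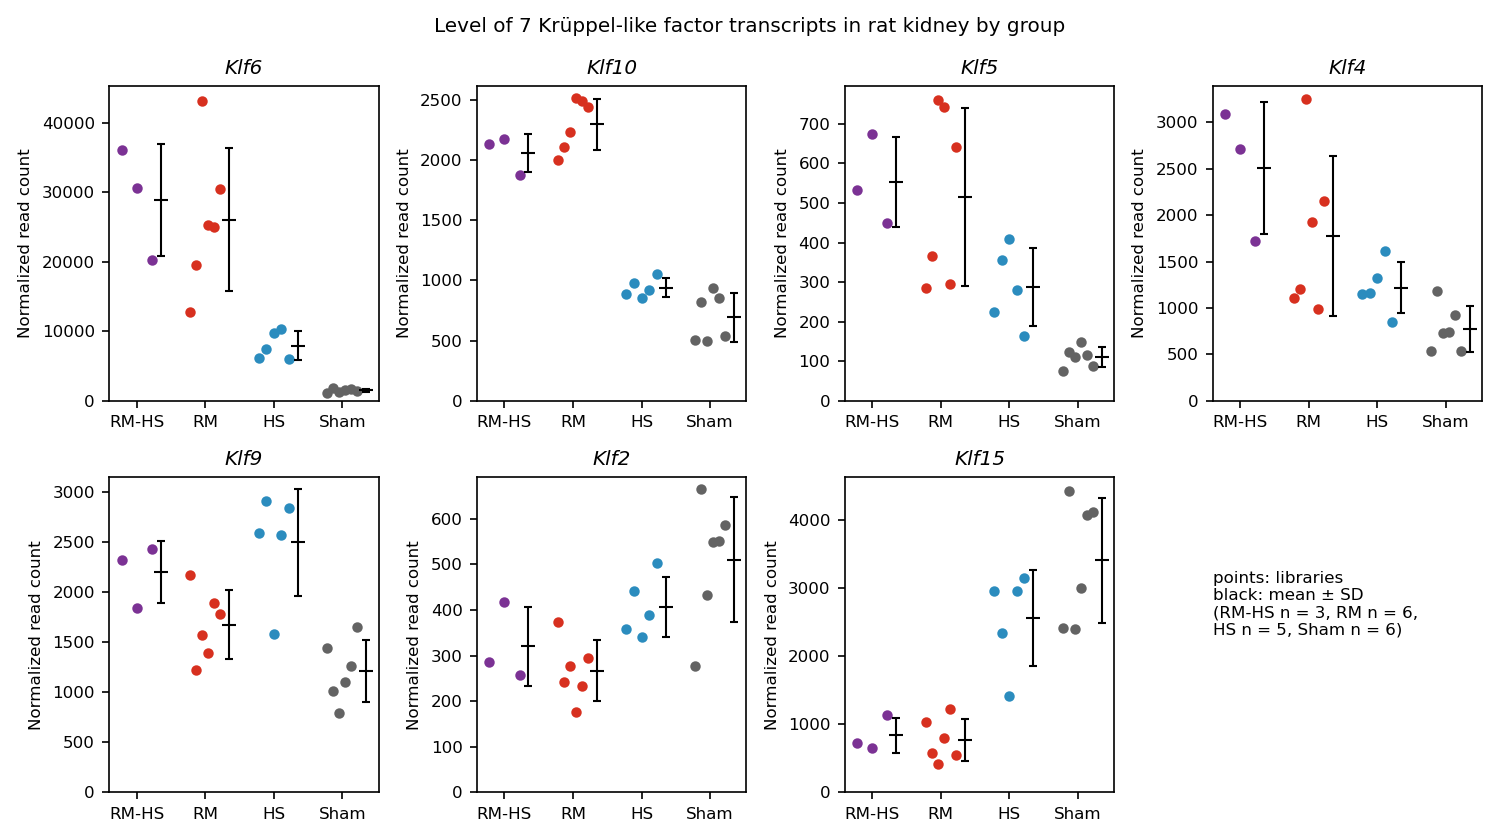
Normalized read count (vertical axes, each from 0) of the 7 genes in each library of RM-HS, RM, HS and Sham, with the mean ± SD in black. Klf6 was never below 12831 in RM-HS and RM and never above 1883 in Sham, while Klf15 was never above 1220.5 in RM-HS and RM and never below 2401 in Sham.

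**Figure D2:**
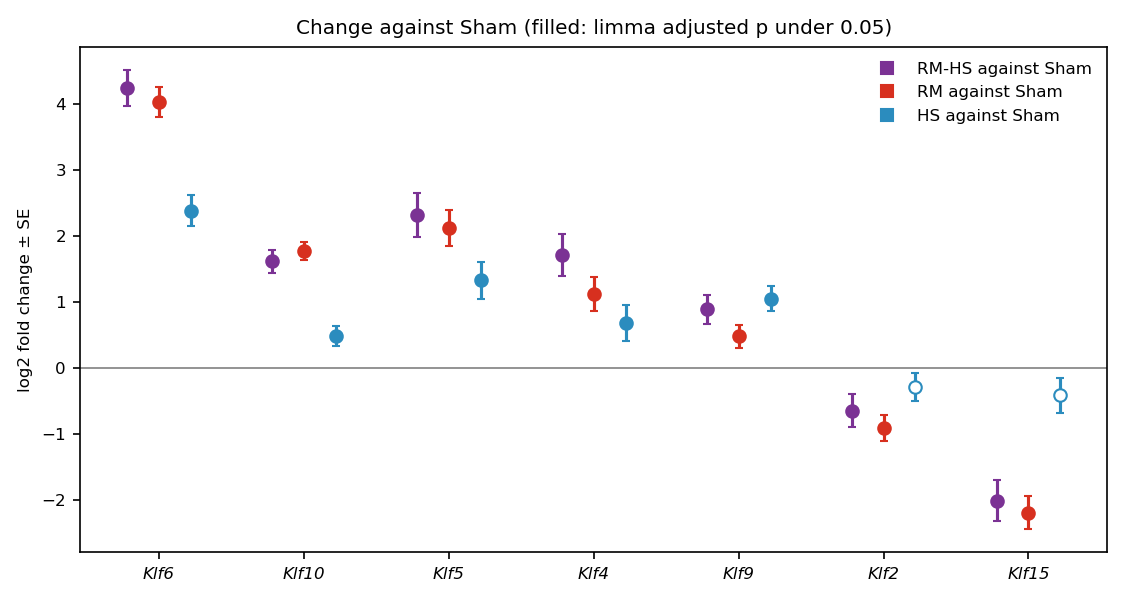
Log2 fold change ± SE (vertical axis) of each gene in RM-HS, RM and HS against Sham, with filled points for a limma adjusted p under 0.05. Klf6 lies highest in all 3 comparisons, at 4.24, 4.04 and 2.38, and Klf15 lowest, at -2.02, -2.20 and -0.42.

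RefSeq promoter windows (GRCr8) were at hand for 5 of the 7 genes, and 3 of these began at the annotated gene start. The 250 bases before the start are shown for these 3 genes, Klf6, Klf5 and Klf9, and not by their pattern of change. Klf6 rose most, Klf5 also rose in RM-HS, RM and HS, and Klf9 was higher in HS than in RM. Capitals mark matches on either strand to the CArG box, the binding sequence of serum response factor, to the E-box CACGTG and to the half-site TGACG of the cyclic AMP response element. These motifs were chosen after the sequences were seen.
Klf6, GRCr8 chr17:69458479-69458728, minus strand: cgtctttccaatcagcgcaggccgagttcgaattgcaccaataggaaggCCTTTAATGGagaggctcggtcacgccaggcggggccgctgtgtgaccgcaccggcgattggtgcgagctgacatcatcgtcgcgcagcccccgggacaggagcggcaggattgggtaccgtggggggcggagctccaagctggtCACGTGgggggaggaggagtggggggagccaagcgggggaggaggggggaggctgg
Klf5, GRCr8 chr15:82471831-82472080, plus strand: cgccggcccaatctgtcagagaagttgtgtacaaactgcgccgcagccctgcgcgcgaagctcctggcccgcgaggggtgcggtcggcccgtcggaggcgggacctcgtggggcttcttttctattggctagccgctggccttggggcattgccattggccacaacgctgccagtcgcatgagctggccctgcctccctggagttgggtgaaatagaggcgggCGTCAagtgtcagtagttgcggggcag
Klf9, GRCr8 chr1:230126396-230126645, plus strand: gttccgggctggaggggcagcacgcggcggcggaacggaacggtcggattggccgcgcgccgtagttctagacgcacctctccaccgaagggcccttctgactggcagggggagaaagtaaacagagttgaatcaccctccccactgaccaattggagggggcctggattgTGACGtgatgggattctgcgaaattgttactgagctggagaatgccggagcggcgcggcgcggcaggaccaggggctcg

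The Klf6 window held a CArG box that begins 201 bases before the start, a motif found in 1.50% of 33469 windows of this length. It also held the E-box CACGTG 56 bases before the start, found in 5.59% of windows, and neither Klf5 nor Klf9 had a match to either motif. Klf5 and Klf9 each held the half-site TGACG once, 27 and 79 bases before the start, and 18.2% of all windows hold it. The AP-1 sequence TGANTCA occurred once in Klf9, in none of the other windows shown, and in 6.34% of all windows. The glucocorticoid receptor half-site AGAACA, present in 17.5% of all windows, was in none of the windows shown. These are matches of letters in a short window and no evidence of binding.

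Klf6, an early response factor, changed most (GSRG0013441, rn6 chromosome 17, 67887934 to 67945037). It stood at 36031, 30548 and 20179 in RM-HS 1 to 3, and in RM ranged over 12831, 25191 and 43152 as lowest, median and highest. It stood at 6113, 7507, 9821, 10312 and 5989.6 in HS 1 to 5, and in Sham at 1168, 1506 and 1883 as lowest, median and highest. No RM-HS, RM or HS library overlapped with Sham, and no RM-HS or RM library overlapped with HS. Against Sham the log2 fold change was 4.24 ± 0.28 in RM-HS (limma adjusted p = 2.8e-09), 4.04 ± 0.23 in RM (limma adjusted p = 9.5e-11) and 2.38 ± 0.24 in HS (limma adjusted p = 4.7e-07). As folds these were 18.9, 16.4 and 5.22, and with Sham 1 and Sham 6 as the only controls the log2 values were 4.42, 4.21 and 2.56, all past the threshold. Between the injured groups Klf6 was higher in RM-HS than in HS by 1.86 ± 0.29 (limma adjusted p = 0.00024) and in RM than in HS by 1.65 ± 0.24 (limma adjusted p = 5.3e-05). The model of Klf6 in the table spans 57104 bases, more than that of any other member, and no other row overlaps it or any other member.

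Klf10, a transcript induced early by TGF-beta (GSRG0028861, rn6 chromosome 7, 77156011 to 77162364), rose mostly in the groups with RM. It stood at 2132, 2169 and 1878 in RM-HS 1 to 3, and in RM at 1999.9, 2332 and 2512 as lowest, median and highest. The HS libraries had 887, 976, 851, 925 and 1052, and Sham had 497, 681 and 939 as lowest, median and highest. Every RM-HS and RM library was above every HS and Sham library, while HS and Sham overlapped. The log2 fold change against Sham was 1.62 ± 0.17 in RM-HS (limma adjusted p = 1.0e-06), 1.77 ± 0.14 in RM (limma adjusted p = 8.5e-09) and 0.48 ± 0.15 in HS (limma adjusted p = 0.012). Klf10 was higher in RM-HS than in HS by 1.13 ± 0.18 and in RM than in HS by 1.29 ± 0.15 (limma adjusted p = 0.00032 and 5.7e-06). Its HS rise did not pass with upper quartile scaling (0.36, limma adjusted p = 0.051), with the name letter (R or S) as a covariate (0.42, limma adjusted p = 0.053) or among libraries named R alone (0.43, limma adjusted p = 0.12). With Sham 1 and Sham 6 as the only controls it was 0.84 in HS (limma adjusted p = 0.00020), and it was 1.98 in RM-HS and 2.13 in RM, both past the threshold.

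Klf5, a factor of proliferating and injured epithelium (GSRG0011098, rn6 chromosome 15, 83703791 to 83722921), rose in all 3 injured groups. It stood at 534, 674 and 450.4 in RM-HS 1 to 3, and in RM at 285, 503 and 761 as lowest, median and highest. It stood at 224, 357, 409, 279 and 165 in HS 1 to 5, and in Sham at 76.7, 113.4 and 149 as lowest, median and highest. The Sham libraries lay below all others. The RM libraries fell into 3 at 285 to 365 and 3 at 640.1 to 761, and they overlapped with HS. The log2 fold change was 2.32 ± 0.33 in RM-HS (limma adjusted p = 2.0e-05), 2.12 ± 0.27 in RM (limma adjusted p = 2.6e-06) and 1.33 ± 0.28 in HS (limma adjusted p = 0.00079). With Sham 1 and Sham 6 as the only controls it was 2.72, 2.51 and 1.72, all past the threshold. Differences from HS were near the threshold, at 0.996 ± 0.34 in RM-HS (limma adjusted p = 0.044) and 0.79 ± 0.28 in RM (limma adjusted p = 0.049). The RM-HS difference from HS did not pass without RM-HS 1, 2 or 3 or HS 1, 4 or 5 (limma adjusted p = 0.066 to 0.15), with no filter (limma adjusted p = 0.056), with the name letter as a covariate (limma adjusted p = 0.079), by edgeR (adjusted p = 0.052) or among libraries named R alone (0.77, limma adjusted p = 0.12). The RM difference from HS did not pass without RM 3, 4 or 6 or HS 1, 4 or 5 (limma adjusted p = 0.080 to 0.14), with no filter (limma adjusted p = 0.062), with trimmed mean of M values or upper quartile scaling (limma adjusted p = 0.052 in both), with only the groups compared (limma adjusted p = 0.088), with the name letter as a covariate (limma adjusted p = 0.10) or among libraries named S alone, where it was 1.28 (limma adjusted p = 0.083).

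Klf4, which acts in epithelial differentiation and in endothelium (GSRG0024825, rn6 chromosome 5, 72283186 to 72288062), had its highest mean in RM-HS. It stood at 3085, 2715 and 1717 in RM-HS 1 to 3, and in RM at 994, 1567 and 3252 as lowest, median and highest. The HS libraries had 1152, 1159, 1319, 1611 and 852, and Sham had 534, 733 and 1181 as lowest, median and highest. All RM-HS libraries were above all HS and Sham libraries, whereas RM overlapped with both. Against Sham the log2 fold change was 1.71 ± 0.32 in RM-HS (limma adjusted p = 0.00031) and 1.12 ± 0.26 in RM (limma adjusted p = 0.0014). The RM rise did not pass with the name letter (R or S) as a covariate (0.92, limma adjusted p = 0.077). In HS it was 0.68 ± 0.28 (limma adjusted p = 0.049), a call lost without HS 1, 2, 3 or 4 or Sham 1, 3, 4 or 6 (limma adjusted p = 0.068 to 0.13), with no filter on low values (limma adjusted p = 0.060), with upper quartile scaling (limma adjusted p = 0.096) and with the letter covariate (limma adjusted p = 0.14). With Sham 1 and Sham 6 as the only controls the rises were 2.18 in RM-HS, 1.59 in RM and 1.15 in HS (limma adjusted p = 0.0011, 0.0032 and 0.031). Klf4 was higher in RM-HS than in HS by 1.03 ± 0.33 (limma adjusted p = 0.034), which did not pass without RM-HS 1 or 2 or HS 1, 2 or 5 (limma adjusted p = 0.053 to 0.14). The RM difference from HS, 0.44 ± 0.28, did not pass (95% interval -0.14 to 1.01, limma adjusted p = 0.27).

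Klf2, the factor of flow-exposed endothelium (GSRG0012167, rn6 chromosome 16, 19223087 to 19225037), was lowest in RM. It stood at 286, 418 and 257 in RM-HS 1 to 3, and in RM at 177, 261 and 375 as lowest, median and highest. The HS libraries had 358, 442, 342, 389.8 and 503, and Sham had 277, 549.9 and 666 as lowest, median and highest. All groups overlapped with Sham. Sham 1, at 277, lay below the other Sham libraries, of which the lowest was Sham 3 at 434, and all RM-HS and RM libraries were below those 5. Against Sham the log2 fold change was -0.65 ± 0.25 in RM-HS (limma adjusted p = 0.039), -0.92 ± 0.20 in RM (limma adjusted p = 0.00076) and -0.29 ± 0.21 in HS (95% interval -0.73 to 0.15, limma adjusted p = 0.28). The RM-HS fall did not pass without RM-HS 1 or 3 or Sham 2, 4, 5 or 6 (limma adjusted p = 0.065 to 0.17). It also did not pass with only the groups compared in the fit (limma adjusted p = 0.082) or among libraries named R alone (limma adjusted p = 0.058). Without Sham 1 the HS value of -0.45 passed (limma adjusted p = 0.048). With Sham 1 and Sham 6 as the only controls neither fall passed, at -0.36 in RM-HS (limma adjusted p = 0.43) and -0.63 in RM (limma adjusted p = 0.10). Klf2 was lower in RM than in HS by a log2 difference of -0.63 ± 0.21 (limma adjusted p = 0.035), which did not pass without RM 2, 4 or 5 or HS 2, 4 or 5 (limma adjusted p = 0.058 to 0.092) or with the letter covariate (limma adjusted p = 0.10). The summed level of 9 endothelial markers was 12464 to 12934 in RM-HS, 12573 to 19375 in RM, 10169 to 12252 in HS, 16909.98 to 19190.2 in Sham 1 and Sham 6 and 13854 to 19836 in Sham 2 to Sham 5. None was at 0 in all libraries, and 3 fell and 2 rose of 9 in RM-HS, 2 fell and 2 rose in RM, and 6 fell and 2 rose in HS. Their part in the Klf2 values was not tested.

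Klf9, a glucocorticoid-induced repressor (GSRG0002119, rn6 chromosome 1, 240908483 to 240933207), was the only one of the 5 members that rose against Sham to be higher in HS than in RM. It stood at 2317, 1846 and 2436 in RM-HS 1 to 3, and in RM at 1227, 1679 and 2172 as lowest, median and highest. The HS libraries had 2594, 2912, 1580.2, 2568 and 2840.3, and Sham had 794, 1186 and 1650.4 as lowest, median and highest. All RM-HS libraries were above all Sham libraries, 4 of 5 HS libraries were too, and RM overlapped with Sham. The log2 fold change against Sham was 0.89 ± 0.22 in RM-HS (limma adjusted p = 0.0028), 0.48 ± 0.18 in RM (limma adjusted p = 0.029) and 1.05 ± 0.19 in HS (limma adjusted p = 0.00014). The RM rise did not pass without RM 1, 5 or 6 or Sham 2, 3 or 4 (limma adjusted p = 0.052 to 0.084), with upper quartile scaling (limma adjusted p = 0.11) or with the letter covariate (limma adjusted p = 0.14). Klf9 was higher in Sham 1 and Sham 6, at 1447 and 1650.4, than in Sham 2 to Sham 5, at 794 to 1266. With these 2 controls alone, Klf9 differed by 0.50 in RM-HS (limma adjusted p = 0.14), 0.09 in RM (limma adjusted p = 0.78) and 0.66 in HS (limma adjusted p = 0.041). It was lower in RM than in HS by a log2 difference of -0.57 ± 0.19 (limma adjusted p = 0.031), not passing without RM 2, 3 or 4 or HS 1, 2, 4 or 5 (limma adjusted p = 0.051 to 0.081) or with the letter covariate (limma adjusted p = 0.079).

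Klf15, a glucocorticoid-induced regulator of amino acid breakdown known from the mouse (GSRG0021724, rn6 chromosome 4, 122365093 to 122377672), fell in both groups with RM. It stood at 719.7, 656 and 1133 in RM-HS 1 to 3, and in RM at 421, 694 and 1220.5 as lowest, median and highest. The HS libraries had 2959.5, 2341, 1418, 2952 and 3146, and Sham had 2401, 3538 and 4424 as lowest, median and highest. Every RM-HS and RM library lay below every HS and Sham library, and HS overlapped with Sham. The log2 fold change was -2.02 ± 0.31 in RM-HS (limma adjusted p = 4.5e-05) and -2.20 ± 0.25 in RM (limma adjusted p = 8.0e-07), which are 4.06-fold and 4.59-fold falls. In HS it was -0.42 ± 0.27 (95% interval -0.98 to 0.14, limma adjusted p = 0.21). Klf15 was lower in RM-HS than in HS by -1.60 ± 0.32 and in RM than in HS by -1.78 ± 0.27 on the log2 scale (limma adjusted p = 0.0020 and 8.5e-05). The fall was of like size with Sham 1 and Sham 6 as the only controls, at -1.96 in RM-HS (limma adjusted p = 0.0029) and -2.13 in RM (limma adjusted p = 0.00048). The summed level of 8 podocyte markers was 9710 to 11302 in RM-HS, 10452 to 13398 in RM, 9416 to 11792 in HS, 10072 to 10402 in Sham 1 and Sham 6 and 2568 to 6357 in Sham 2 to Sham 5, with none at 0 in all libraries.

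**Figure D3:**
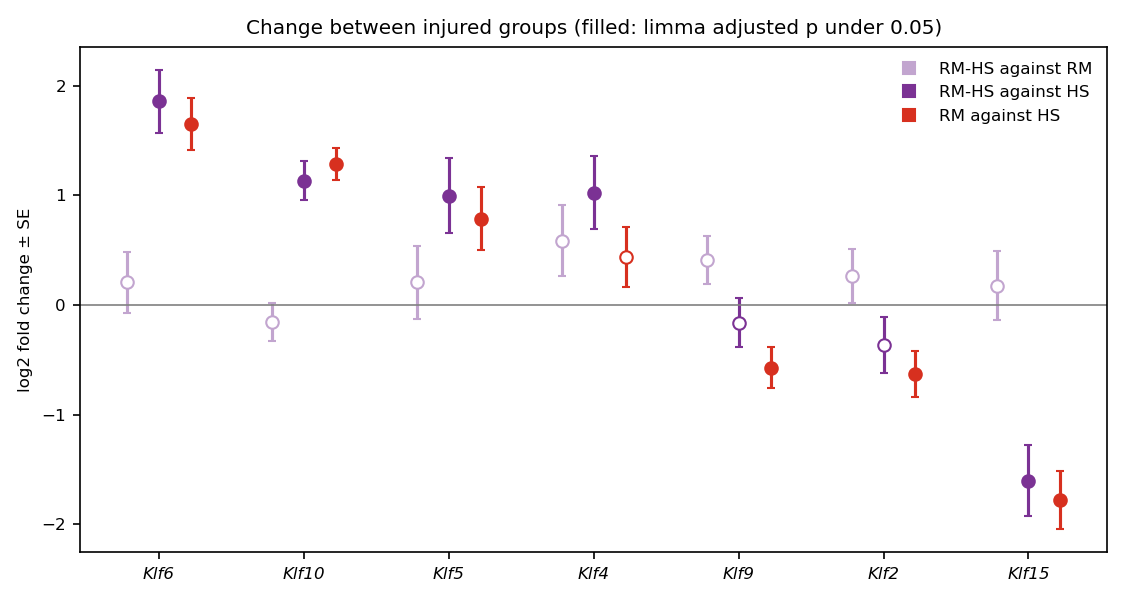
Log2 fold change ± SE (vertical axis) of each gene between the injured groups, with filled points for a limma adjusted p under 0.05. The comparison of RM-HS with RM has no filled point, and Klf6 and Klf10 lie above 0 and Klf15 below 0 in both comparisons with HS.

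The order of the group levels differed between the genes. Klf6, Klf5 and Klf4 ran RM-HS, RM, HS, Sham by their means, from high to low, Klf10 ran RM, RM-HS, HS, Sham, and Klf9 ran HS, RM-HS, RM, Sham. Klf15 and Klf2 ran Sham, HS, RM-HS, RM. Neighbours that did not differ by the test were RM-HS and RM in every gene, HS and Sham in Klf2 and Klf15, RM-HS and HS in Klf2 and Klf9, and RM and HS in Klf4. Of 7 members 5 passed between RM-HS and HS, against 20.6% of all rows, and 6 of 7 between RM and HS, against 23.8%. With RM-HS set against HS, 4 rose and 1 fell, and 5 of 7 did not overlap, against 24.9% of all rows. With RM set against HS, 3 rose and 3 fell, and 3 of 7 did not overlap, against 14.2%.

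RM-HS and RM were neighbours in the order of every gene, and their difference was not detectable for any member at this replication. No member passed by limma between RM-HS and RM, against 1.08% of all rows, 0 had an unadjusted p under 0.05 (every 95% interval held 0), 0 passed by edgeR or DESeq2, and none had groups that did not overlap, against 7.76%. The log2 differences ran from -0.15 ± 0.17 for Klf10 (95% interval -0.52 to 0.21) to 0.59 ± 0.32 for Klf4 (95% interval -0.08 to 1.26). For Klf6 the difference was 0.21 ± 0.28 (95% interval -0.37 to 0.78) and for Klf15 0.18 ± 0.31 (95% interval -0.47 to 0.83).

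The joint effect of RM and HS was set against the sum of the separate ones, on the log2 scale. A sum on that scale multiplies the folds, so a departure from it depends on the scale. Additivity of the read counts themselves was not tested. The mean counts of Klf6 were 28919 in RM-HS, 26057 in RM, 7948 in HS and 1501 in Sham. Klf6 was 4.24 above Sham in RM-HS, while the RM and HS changes add up to 6.42. The departure from additivity was -2.18 ± 0.36 (limma adjusted p = 0.00027), and it did not pass with the name letter (R or S) as a covariate (-1.59, limma adjusted p = 0.061). The Klf6 departure was -2.35 with Sham 1 and Sham 6 as the only controls (limma adjusted p = 0.0037). Klf10 was 1.62 above Sham against a sum of 2.26, a departure of -0.64 ± 0.23 (limma adjusted p = 0.039). That call was lost without any of RM-HS 1, 2 or 3, RM 4, 5 or 6, HS 2, 4 or 5 or Sham 1, 3 or 6 (limma adjusted p = 0.054 to 0.11), with upper quartile scaling (limma adjusted p = 0.094) and with the letter covariate (limma adjusted p = 0.45), and it was -0.99 (limma adjusted p = 0.0011) against these 2 Sham libraries, 1 and 6, alone, where 19.8% of all rows passed. Thus 2 of 7 members passed, against 31.7% of all rows, and each lay below the sum. Klf5 had a departure of -1.12 ± 0.44 (limma adjusted p = 0.056), which passed by edgeR (adjusted p = 0.026), by DESeq2 (adjusted p = 0.014), with trimmed mean of M values scaling (limma adjusted p = 0.045), with a filter at 50 (limma adjusted p = 0.049) and without RM 1, RM 5, HS 5 or Sham 4 (limma adjusted p = 0.026 to 0.045). Klf9 had -0.64 ± 0.29 (limma adjusted p = 0.096), which passed without HS 3 (-0.80, limma adjusted p = 0.025) or Sham 6 (-0.74, limma adjusted p = 0.048). Klf2 had 0.55 ± 0.32 (limma adjusted p = 0.20), which passed without Sham 1 (0.72, limma adjusted p = 0.049). Klf15 had 0.60 ± 0.41 and Klf4 -0.09 ± 0.42 (limma adjusted p = 0.28 and 0.89).

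**Figure D4:**
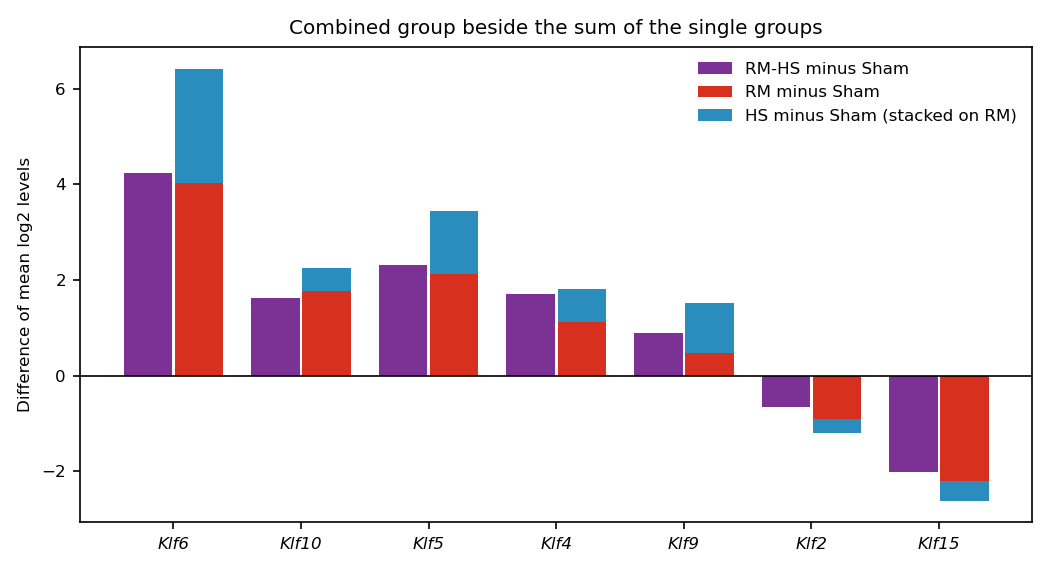
Difference of mean log2 levels from Sham (vertical axis) in RM-HS, beside the RM and HS differences stacked on each other, for each gene. The stacked bar exceeds the RM-HS bar for Klf6 (6.42 against 4.24), and the bars are near each other for Klf4 (1.80 against 1.71).

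The libraries inside a group kept to a partly shared order across the genes. RM 3 was the highest RM library in Klf4, Klf5 and Klf6 and the lowest in Klf15, while RM 1 was the lowest in Klf5, Klf6 and Klf10 and the highest in Klf2 and Klf9. RM 1 is also the only RM library named with R. HS 3 was the highest HS library in Klf5 and the lowest in Klf2, Klf9, Klf10 and Klf15, while HS 5 was the lowest in Klf4, Klf5 and Klf6 and the highest in Klf2, Klf10 and Klf15. The summed level of 8 neutrophil markers was highest at 21411 in RM 3 (other RM libraries 5412 to 20218) and 8477 in HS 3 (other HS libraries 2118 to 5547). RM 2, at 20218, ranked 4, 4 and 5 from the highest RM library in Klf4, Klf5 and Klf6. In RM-HS the sum was 8184 to 13403, and it was highest in RM-HS 3. That library was the lowest of RM-HS in Klf2, Klf4, Klf5, Klf6 and Klf10 and the highest in Klf9 and Klf15. In Sham the sum was 961 to 4982. Of these 8 markers 8 rose in RM-HS, 8 in RM and 3 in HS, and none was at 0 in all libraries. Their part in the values of the Krüppel-like factors was not tested.

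**Figure D5:**
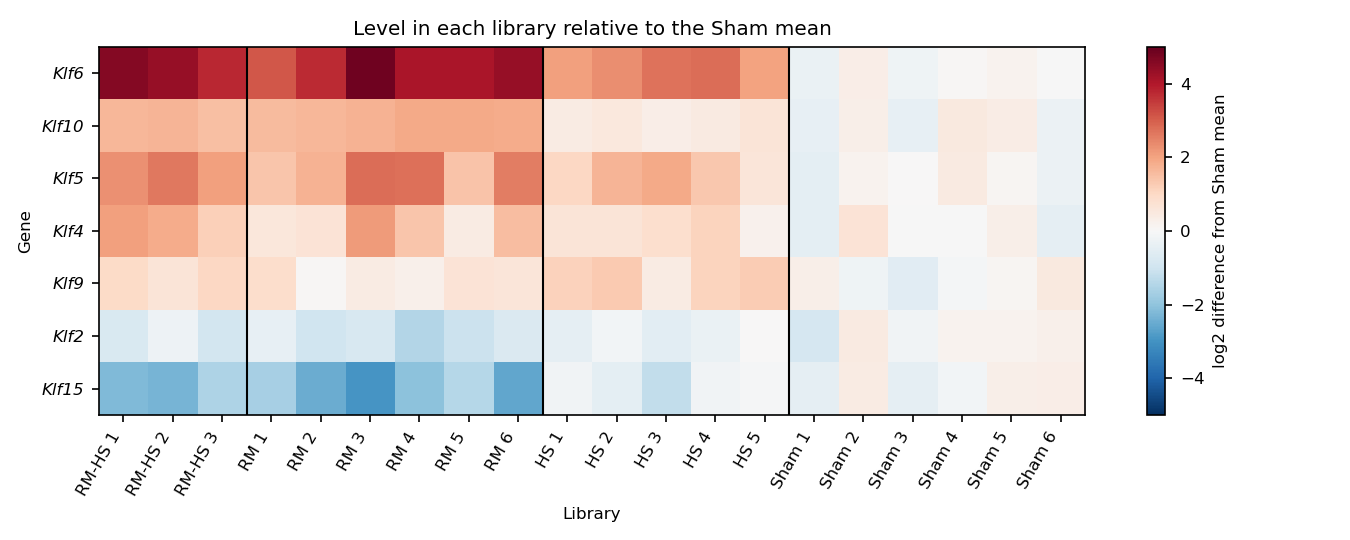
Log2 difference of each library (columns, grouped as RM-HS, RM, HS and Sham) from the Sham mean for the 7 genes (rows), in red where higher and in blue where lower. Klf6 reached 4.86 in RM 3 and 3.11 in RM 1, and the Sham libraries lay between -0.34 and 0.34.

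The genes most like each member over the 20 libraries were taken by Pearson's r of log2(value + 1) among 11165 other genes, as a description. These libraries share their 4 groups, so r reflects mostly the group levels. For Klf6 they were Ifrd1 (r = 0.99), the AP-1 subunit Jun (r = 0.99) and Dusp8, a phosphatase of MAP kinases (r = 0.99). For Klf10 they were Eid3 (r = 0.97), the small MAF factor Maff (r = 0.96) and Csrnp1 (r = 0.96). Klf5 was most like the adhesion molecule gene Pvr (r = 0.97), Pabpc1, which encodes a poly(A)-binding protein (r = 0.96), and Tgif1, a repressor of TGF-beta signalling (r = 0.96). Klf4 was most like Sod2, the mitochondrial superoxide dismutase (r = 0.94), Cnksr3 (r = 0.91) and the small GTPase gene Rhob (r = 0.91). Klf15 was most like Calcoco1 (r = 0.97), Cfap418 (r = 0.94) and Ccdc32 (r = 0.94). The nearest to Klf9 were Tmem252 (r = 0.90), the mitophagy receptor gene Bnip3 (r = 0.89) and Bmt2 (r = 0.89), and to Klf2 Rassf7 (r = 0.88) and Rem1 (r = 0.87).

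Of the other 10 Krüppel-like factor genes listed, 7 were matched and 6 tested. Klf11, the closest relative of Klf10 and likewise TGF-beta inducible, averaged 1167 ± 174 in RM-HS, 1005 ± 127 in RM, 514 ± 43.8 in HS and 339 ± 63.4 in Sham (SD, n = 3, 6, 5 and 6). Its log2 fold change against Sham was 1.79 ± 0.15 in RM-HS, 1.58 ± 0.12 in RM and 0.62 ± 0.13 in HS, all past the threshold (limma adjusted p = 4.8e-08, 5.7e-09 and 0.00063). Klf13 rose by 1.05 ± 0.21, 0.89 ± 0.17 and 1.21 ± 0.18 in RM-HS, RM and HS, and Klf3, a repressor, by 0.44 ± 0.11, 0.45 ± 0.09 and 0.54 ± 0.09. Klf12 rose in RM (0.96 ± 0.19) and in HS (0.80 ± 0.20), and was at 0.37 ± 0.24 in RM-HS (limma adjusted p = 0.23). Klf1, the erythroid factor, had -0.44 ± 0.60, -0.58 ± 0.49 and -0.68 ± 0.52, and Klf16 had -0.03 ± 0.21, -0.22 ± 0.17 and 0.11 ± 0.18, none past the threshold. Klf14 stayed below the filter, at 9.80 or less in every library. Of the related SP factors 4 of 9 were tested and Sp1 rose in all 3 groups (0.62 ± 0.13 in RM-HS, 0.80 ± 0.10 in RM and 0.71 ± 0.11 in HS), while Sp4 and Sp6 did not pass in any. Sp5, named after its values were seen, fell in HS (-3.78 ± 1.17, limma adjusted p = 0.012) and was at -1.61 ± 1.36 in RM-HS and -1.68 ± 1.11 in RM, neither past the threshold. Its level was low, at 113.1 or less in every library. Of the 6 other Krüppel-like factor genes 3 rose and 0 fell in each group with Sham 1 and Sham 6 as the only controls. Of the SP factors 1 rose and 0 fell in each. With these controls 27.2%, 32.9% and 25.7% of all rows were called in either direction in RM-HS, RM and HS.

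Genes upstream and downstream of the members were counted from lists, which carry no test of their own. In the ERK5 and MEF2 pathway, which drives Klf2 and Klf4 in endothelium, 4 of 6 tested genes rose and 1 fell in RM-HS, 3 rose and 1 fell in RM, and 5 rose and 1 fell in HS, while 21.3%, 26.2% and 23.3% of all rows were higher and 21.0%, 26.8% and 23.2% lower. The counts with Sham 1 and Sham 6 alone were 3, 3 and 4 rises and 0, 0 and 1 falls. The kinase gene Map3k2 rose by 2.42 ± 0.23, 2.53 ± 0.19 and 1.99 ± 0.20, and the transcription factor genes Mef2d by 1.18 ± 0.11, 1.19 ± 0.09 and 0.72 ± 0.10 and Mef2a by 0.54 ± 0.13, 0.64 ± 0.11 and 0.56 ± 0.11. Endothelial genes that KLF2 and KLF4 activate or repress in human and mouse cells rose in 6 of 10 in RM-HS, 7 in RM and 6 in HS, where 2 fell. Thbd, thrombomodulin, known to be activated by them, averaged 2335 ± 719 in RM-HS, 1847 ± 734 in RM, 1289 ± 221 in HS and 729 ± 207 in Sham. The endothelin gene Edn1, known to be repressed by them, rose by 1.79 ± 0.38, 0.88 ± 0.31 and 1.41 ± 0.32. With Sham 1 and Sham 6 as the only controls that list had 4, 5 and 2 rises and 0, 0 and 1 falls. With these controls 27.2%, 32.9% and 25.7% of all rows were called in either direction in RM-HS, RM and HS.

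The list of glucocorticoid-induced genes beside Klf9 and Klf15 also holds the gene of the glucocorticoid receptor itself. Of its 9 genes 6 rose in RM-HS, 7 in RM and 8 in HS, and none fell, against 21.3%, 26.2% and 23.3% of all rows higher. Sgk1, a kinase that regulates sodium transport, rose by 1.74 ± 0.15, 1.43 ± 0.13 and 2.09 ± 0.13, the kinase inhibitor Errfi1 by 1.91 ± 0.20, 1.83 ± 0.17 and 1.21 ± 0.17, and the phosphatase Dusp1 by 2.55 ± 0.33, 2.49 ± 0.27 and 0.9995 ± 0.28. The rises with Sham 1 and Sham 6 alone were 6, 6 and 7, with 0 falls in each. With these controls 27.2%, 32.9% and 25.7% of all rows were called in either direction. In TGF-beta signalling, around Klf10, 5 of 10 tested genes rose in RM-HS, 7 rose and 1 fell in RM, and 8 rose and 1 fell in HS. Of all rows 21.3%, 26.2% and 23.3% were higher and 21.0%, 26.8% and 23.2% lower in RM-HS, RM and HS. With Sham 1 and Sham 6 alone 4, 5 and 7 of the TGF-beta genes rose and 0 fell in each. Tgif1 rose by 3.09 ± 0.24, 2.91 ± 0.20 and 1.86 ± 0.21, and the signal transducers Smad3 by 1.03 ± 0.13, 0.94 ± 0.10 and 0.83 ± 0.11 and Smad4 by 0.59 ± 0.09, 0.59 ± 0.07 and 0.79 ± 0.08.

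Breakdown of branched-chain amino acids, which KLF6 and KLF15 are known to regulate in the mouse, had more falls than rises against Sham in RM and HS. Of 20 tested genes 3 fell and 2 rose in RM-HS, 9 fell and 1 rose in RM, and 11 fell and none rose in HS, against 21.0%, 26.8% and 23.2% of all rows lower. Bcat2, the mitochondrial transaminase, had -0.77 ± 0.16, -0.90 ± 0.13 and -1.29 ± 0.14, and Ppm1k, the phosphatase that activates the branched-chain dehydrogenase, had -1.63 ± 0.35 and -1.998 ± 0.29 in RM-HS and RM and -0.67 ± 0.30 in HS (limma adjusted p = 0.076). Bcat1, the cytosolic transaminase, rose by 2.30 ± 0.46 in RM-HS and 2.15 ± 0.38 in RM and was at 0.78 ± 0.39 in HS (limma adjusted p = 0.11). Set against HS, RM-HS had 10 of the 20 genes higher and none lower, against 20.6% of all rows called in either direction. In RM-HS, RM and HS 2, 3 and 7 genes fell and 2, 1 and 0 rose with Sham 1 and Sham 6 as the only controls. With these controls 27.2%, 32.9% and 25.7% of all rows were called in either direction. The early proximal tubule markers were also higher in RM-HS, at 196307 to 276828, than in HS, at 138899.7 to 164369, without overlap, and their part in these counts was not tested. Of 6 tested genes of other amino acid breakdown tied to KLF15 in the mouse, 1 rose and 1 fell in RM-HS, 1 rose and 2 fell in RM, and 2 rose and 2 fell in HS, and with Sham 1 and Sham 6 alone 1, 1 and 0 rose and 0, 0 and 1 fell. Hpd, of tyrosine breakdown, rose by 1.56 ± 0.23, 1.17 ± 0.19 and 0.84 ± 0.19, and the alanine transaminase Gpt fell, at -1.09 ± 0.40, -0.97 ± 0.33 and -1.001 ± 0.34. Haao, of tryptophan breakdown, was at -0.21 ± 0.13 in RM-HS (limma adjusted p = 0.21) and fell in RM (-0.42 ± 0.11) and HS (-0.80 ± 0.11).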

How the data were processed

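The 20 kidney libraries were stranded and paired-end, from mRNA, per the labels' protocols. The submitters' processing notes name STAR, the rn6 build, featureCounts (Subread 1.5.0), DESeq2, FastQC 0.11.2, SAMtools 1.0 and Picard 1.119. The deposited signal values are read counts divided by 1 size factor per library: once multiplied back, 100% lay within 0.1 read of a whole read. Whether the authors counted by strand is not given in the sources used here.

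Groups came from the labels, and replicate numbers follow the order of the sample list. Rows that reached 10 in 3 or more libraries entered 1 limma fit (version 3.58.1, R 4.3.3) of 4 group means to log2(value + 1), with trended variances, and p-values were adjusted over all 15954 rows in each comparison. Members, lists and tests were chosen with earlier results of these data known. By rule the text names the 7 members, the other tested family genes, up to 3 genes of each other list by the smallest adjusted p in RM-HS against Sham (4 SP factors tested, of which the rule names Sp1, Sp4 and Sp6), and the 3 genes most like each member among those with a mean of at least 50. Sp5 was named outside this rule, after its values were seen. Of the genes this rule names, 2 are not reported here. Sequences are RefSeq's. Alternatives were pseudocount 8, no filter, a filter at 50, trimmed mean of M values and upper quartile scaling, only the groups compared, the letter (R or S) of the library name as covariate, Sham 1 and Sham 6 alone, recovered reads in edgeR 4.0.16 and in DESeq2 1.42.0, and leaving out each library. Libraries named R alone or S alone were added after seeing the data. All RM-HS and Sham libraries are named R, as are 3 of 5 in HS and 1 of 6 in RM. The letter is not stated to mark a batch. Listed genes without a matching row were not analysed here. The fit was tested on simulated data.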

Additional observations from a re-analysis of the deposited data

Results flagged for a closer look

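Klf9 was at 1580.2 in HS 3, while the nearest of the other HS libraries was at 2568, a gap of 0.742 of the group's range. Of 21 sets of 5 or 6 libraries examined in this way, it was the only one with such a gap, and chance gives about 1 in 20. HS 3 is named R38L, the only library name with a letter after its number. Its mitochondrial share of reads was the lowest, at 42.2%. The part of either in the Klf9 value was not tested. Klf6 and Klf10 departed from additivity, at -2.18 and -0.64 on the log2 scale by the interaction term. With the name letter as a covariate neither passed (limma adjusted p = 0.061 and 0.45), and Klf10 also lost the call in 12 of 20 fits without 1 library and with upper quartile scaling. The 2 of 7 members that passed stand beside 31.7% of all rows.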

How the results depend on the processing

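Of 1050 pairs of a member's comparison and an alternative, 938 kept direction and side of the threshold, 92 lost the call, 12 gained it and 8 changed sign. Not every pair could move freely. The filter settings and the fits of only the groups compared keep the main estimate and change only its p-value. So does the letter covariate in RM-HS against Sham. The 938 also hold 125 of the 126 pairs of RM-HS against RM, where no member was called in the main fit. Members called in HS against Sham numbered 3 of the 5 with upper quartile scaling and 3 with the letter covariate, in RM against HS 3 of the 6 with the letter covariate, and in additivity 1 of the 2 with upper quartile scaling and 0 with the letter covariate. Leaving out 1 library gave 1 to 3 members in additivity, 3 to 6 in RM against HS and 3 to 5 in RM-HS against HS. Over all rows the calls were 5054 for additivity (617 with the letter covariate, 3151 with Sham 1 and Sham 6 alone), 7410 for HS against Sham (4105 with Sham 1 and Sham 6 alone), 3791 for RM against HS (2356 with libraries named S alone), 8455 for RM against Sham (4551 with the letter covariate, 5250 with Sham 1 and Sham 6 alone), 3287 for RM-HS against HS (1203 with libraries named R alone, 2015 to 3289 without 1 library), 173 for RM-HS against RM (42 with only the groups compared, 0 with the letter covariate, 505 by DESeq2, 21 to 480 without 1 library) and 6749 for RM-HS against Sham (4347 with Sham 1 and Sham 6 alone). Sign changes were Klf2 in HS against Sham with Sham 1 and Sham 6 alone (0.00049), Klf15 in RM-HS against RM without RM-HS 3 (-0.062; 0.33 without RM-HS 2), and Klf4 additivity with upper quartile scaling (0.036), with the letter covariate (0.21) and without RM-HS 3 (0.16), RM 3 (0.11), HS 4 (0.01) or Sham 1 (0.0017), the lowest being -0.26 without RM-HS 1; the cause was not tested. Upper quartile scaling moved the median of all rows by -0.13, -0.14 and -0.12 in RM-HS, RM and HS against Sham, and the share of calls that were higher was 36.9%, 37.0% and 38.5%, against 50.3%, 49.4% and 50.1%. No paired analysis was possible because the labels carry no replicate numbers.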
